A study of Mus musculus with 2 samples.

Results

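In 71 genes of adult mouse liver, the transcript that made up most of the gene's output in one library was not the transcript that made up most of it in the other. The set was chosen from the deposited tables by a rule on measured values. A gene entered it when its mean TPM (a transcript level corrected for length and library size) over both libraries was at least 10, when at least 2 of its transcripts were listed, and when a different transcript held at least 50% of the gene's TPM in each library. Of 43346 Ensembl genes listed, 4107 had several transcripts at that level, and 71 of those met the rule. That is 1.73% of them, and since the rule fixed it, nothing is read from it. The dominant transcript differed between the libraries in 381 of the 4107 genes (9.28%) when no minimum share was asked for. The share of a transcript is its percentage of the gene's TPM. The swing of a gene is the drop of replicate 1's dominant transcript in replicate 2 plus the gain of replicate 2's dominant transcript there, in percentage points.

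The study sequenced poly-A RNA from C57BL/6J liver at 8 weeks of age, in 2 libraries labelled replicate 1 and replicate 2 of 1 group, with no treatment and no mutant. The labels describe pooled littermates of both sexes and give both libraries the same donor, so they do not say that the replicates are separate animals. All differences below are therefore differences between libraries, which may be technical. There is no second group, so no condition was compared and no test was made. Every value is 1 library's value, and ratios are replicate 1 over replicate 2.

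Most genes can be read into several transcripts, through different start sites, different splicing and different ends. Some of these transcripts carry a complete reading frame. Others keep an intron, stop early and become targets of nonsense-mediated decay, or are listed as processed transcripts without a reading frame. Short reads that lie in an exon shared by several transcripts do not tell which of them they came from. A program divides such reads by probability. The division rests in part on the reads that only 1 transcript can give, where there are any.

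Sequence at the differing exon or junction is shown for 6 of the genes, because it marks where their annotated models part. It is taken from GENCODE M21 transcripts on GRCm38, in the direction of the gene. In the first 5 lines the capitals are bases of the named transcript that its rival skips or replaces, and the lower-case bases are the adjoining spliced bases. Slc25a3, the mitochondrial phosphate carrier, uses one of 2 mutually exclusive exons, at chr10:91121922-91122043 (minus strand, 122 bases) in Slc25a3-201 and at chr10:91122207-91122331 (125 bases) in Slc25a3-206. Capzb, the beta subunit of the actin capping protein, has 100 coding bases of an added exon at chr4:139288861-139288960 (plus strand) in Capzb-203, whose line ends with its stop codon. Ptpn11, which encodes the phosphatase SHP2, has 12 added bases at chr5:121144685-121144696 (minus strand) in Ptpn11-201. The M21 lengths of its dominant pair do not both match the deposited ones. Cyp3a25, a cytochrome P450, has an exon of 89 bases at chr5:145993273-145993361 (minus strand) in Cyp3a25-201, which the nonsense-mediated decay transcript Cyp3a25-203 lacks.
Slc25a3-201: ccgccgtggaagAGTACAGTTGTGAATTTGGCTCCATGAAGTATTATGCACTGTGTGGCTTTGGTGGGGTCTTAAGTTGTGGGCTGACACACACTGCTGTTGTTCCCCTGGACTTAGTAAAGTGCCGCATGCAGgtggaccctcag
Slc25a3-206: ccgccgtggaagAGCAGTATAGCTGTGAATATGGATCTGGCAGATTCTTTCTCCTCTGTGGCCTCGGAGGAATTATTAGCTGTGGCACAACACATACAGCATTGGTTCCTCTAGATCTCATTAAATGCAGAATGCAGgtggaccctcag
Capzb-203: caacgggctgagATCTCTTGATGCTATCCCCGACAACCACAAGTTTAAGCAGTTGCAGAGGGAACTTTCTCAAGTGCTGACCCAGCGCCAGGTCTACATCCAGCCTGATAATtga
Ptpn11-201: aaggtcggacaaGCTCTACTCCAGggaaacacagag
Cyp3a25-201: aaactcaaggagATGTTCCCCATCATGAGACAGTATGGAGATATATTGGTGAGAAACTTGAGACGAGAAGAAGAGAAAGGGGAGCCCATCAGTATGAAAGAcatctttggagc

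The remaining lines show junctions, with the 20 bases before the junction in capitals and the 20 bases after it in lower case. Adh1 is the liver alcohol dehydrogenase. Its transcript Adh1-202, annotated for nonsense-mediated decay, joins across chr3:138279752-138282435 (plus strand) and so lacks 220 exonic bases of the coding transcript Adh1-201. Mta1 is a subunit of the nucleosome remodelling and deacetylase complex. Its dominant transcripts differ in an intron placed 5 bases apart, at chr12:113123235-113126774 in Mta1-204 and at chr12:113123240-113126779 in Mta1-202 (plus strand).
Adh1-202: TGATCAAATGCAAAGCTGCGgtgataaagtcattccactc
Mta1-204: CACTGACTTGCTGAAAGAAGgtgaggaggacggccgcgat
Mta1-202: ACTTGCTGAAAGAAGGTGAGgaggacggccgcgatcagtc

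**Figure D1:**
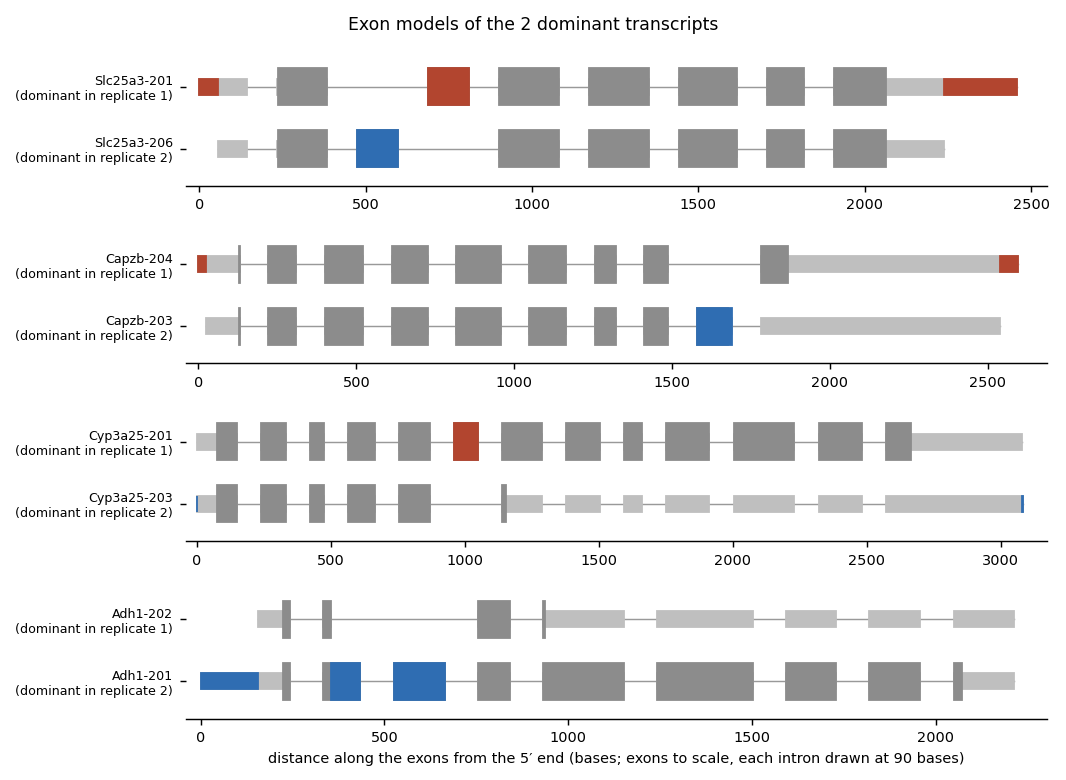
Exon models of the 2 dominant transcripts of Slc25a3, Capzb, Cyp3a25 and Adh1, 5′ end on the left, exons to scale in bases and each intron drawn at 90 bases. Tall boxes are coding and low boxes non-coding, and red (transcript dominant in replicate 1) or blue (dominant in replicate 2) marks exonic bases absent from the other transcript, such as the mutually exclusive exons of Slc25a3.

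Slc25a3 had the clearest exchange of an exon. The gene is known for a pair of mutually exclusive exons, one of them used mainly in heart and skeletal muscle; which of the annotated exons is which was not worked out here. Slc25a3-201 held 91.4% of the gene in replicate 1 and 41.2% in replicate 2, with 206 and 131 TPM and 14324 and 9260 estimated reads. Slc25a3-206 held 2.27% in replicate 1 and 52.5% in replicate 2, with 5.14 and 167 TPM and 289 and 9566 estimated reads. The deposited TPM intervals of the transcripts were apart in both libraries. Counting every listed transcript that carries a junction of one exon and not the other, the junctions of Slc25a3-201 held 93.6% and 43.1%, and those of Slc25a3-206 held 2.27% and 52.5%. The gene as a whole had 226 TPM in replicate 1 and 319 in replicate 2. Of 8 striated muscle genes, chosen after values were seen, none passed 0.47 TPM in either library, and their summed level was 0.87 and 0.89 TPM. Whether muscle RNA had a part in the exchange was not tested.

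Capzb and Cyp3a25 also exchanged transcripts that differ by an internal exon. Capzb-204, without the added exon, had 33.5 TPM in replicate 1 and 12.97 in replicate 2. Capzb-203, with it, had 13.2 and 30.1 TPM. The shares of Capzb-204 were 70.7% and 28.6%, and the gene itself had 47.3 and 45.3 TPM. Cyp3a25-201, the coding transcript, had 64.9 TPM in replicate 1 and 41.5 in replicate 2, which is 65.8% and 43.0% of the gene. Cyp3a25-203, the transcript marked for decay, had 32.9 and 54.3 TPM. In both genes the dominant transcripts' intervals did not overlap in either library.

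Hsd17b12, a reductase of long-chain fatty acid elongation, and Pltp, the phospholipid transfer protein of plasma, showed the same kind of difference in a skipped exon. Hsd17b12-201 held 68.8% in replicate 1 and 29.6% in replicate 2, while Hsd17b12-202, listed without a reading frame, held 30.9% and 69.9%. Pltp-203 held 58.0% and 35.6%, against 37.6% and 58.9% for Pltp-201. In Pltp the reads of the whole gene differed as well, with 2973 in replicate 1 and 5970 in replicate 2. The other genes with a skipped exon, among those with unchanged models, were Vps25, Slc35d1, Sec23a, Mfsd13a, Stradb, Dhx32, Stx2 and Ece1. In Vps25, Sec23a, Mfsd13a, Dhx32 and Ece1 the same transcript led by estimated reads in both libraries. Some of these pairs differ in more than the exon. Their 3′ ends lie 633 bases apart in Vps25, 7274 in Mfsd13a and 51375 in Ece1.

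Over all 71 genes the exchange was usually small. Replicate 1's dominant transcript had a median share of 54.9% in replicate 1 and 40.6% in replicate 2. Replicate 2's dominant transcript had a median of 40.7% in replicate 1 and 56.3% in replicate 2. The drop of replicate 1's transcript was 2.65 points at the least, 18.03 at the median and 76.1 at the most. It was under 20 points in 44 genes, under 10 points in 16 and at least 40 points in 10. In 54 genes a dominant share lay below 55% in at least 1 library. Both shares reached 60% in 9 genes (Ece1, Hsd17b12, Capzb, Plin5, Ubald2, Pcbd2, Mup9, Med21 and 1810046K07Rik). Ece1 and Pcbd2 alone had both shares at 70% or more.

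**Figure D2:**
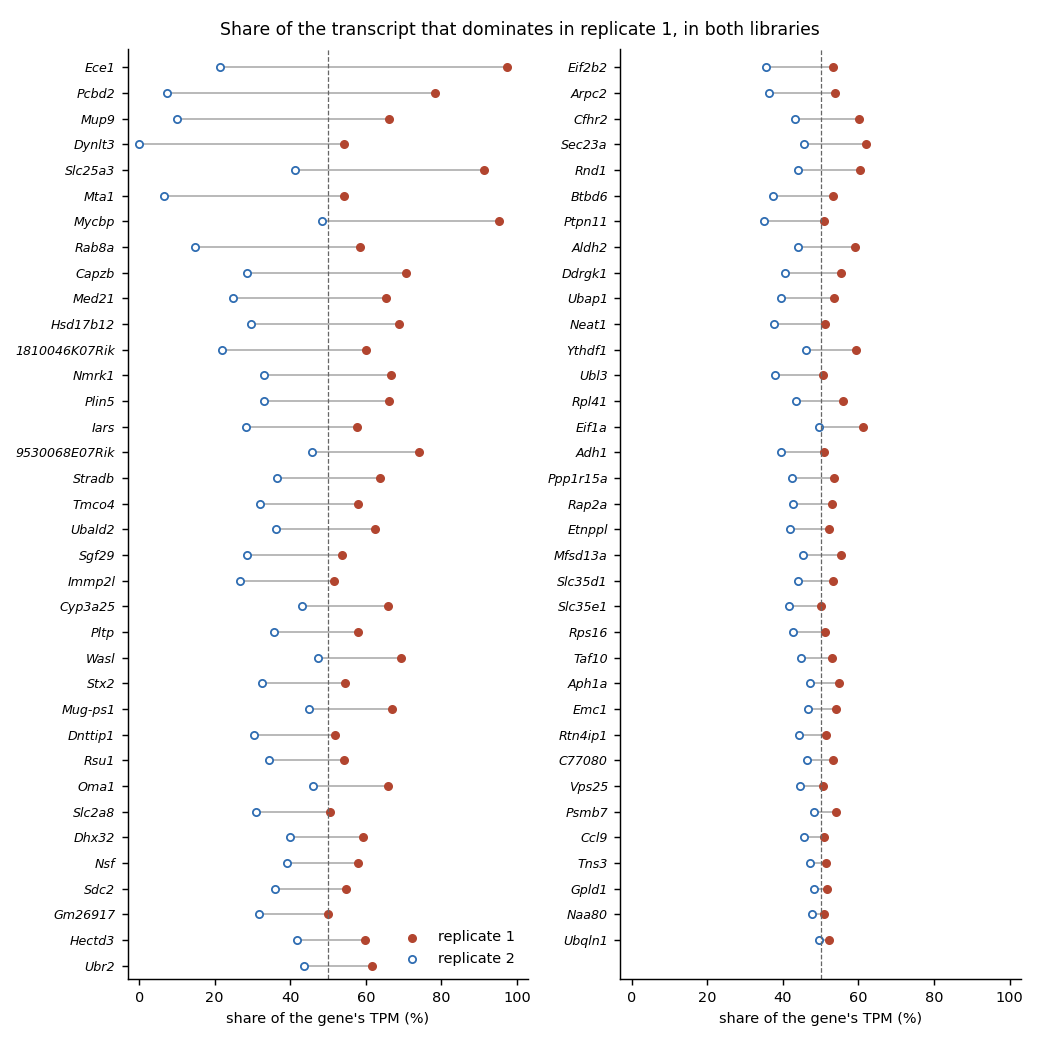
Share of the gene's TPM (percent) held by the transcript that dominates in replicate 1, for all 71 genes, in replicate 1 (filled red) and in replicate 2 (open blue), ordered by the difference. The dashed line is the 50% minimum; only 10 genes drop by 40 points or more.

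The values nearest the minimum show how little separates some genes inside the rule from those outside it. Gm26917, a long non-coding RNA, was inside with 50.01% for Gm26917-201 in replicate 1 and 68.2% for Gm26917-202 in replicate 2. Aldh2, the mitochondrial aldehyde dehydrogenase that oxidises acetaldehyde, was inside with 59.1% for Aldh2-202 in replicate 1 and 50.01% for Aldh2-204 in replicate 2. The smaller dominant share was also close to 50% in Slc35e1 (50.2% in replicate 1), Mycbp (50.4% in replicate 2) and Slc2a8, the glucose transporter GLUT8 (50.4% in replicate 1). Just outside were Furin, Lgals3bp, Metap1d and Rpl21, whose leading transcripts held 56.8%, 52.9%, 56.3% and 57.0% in replicate 1 and 49.98%, 49.94%, 49.93% and 49.92% in replicate 2. Mto1 was outside by its share of 49.8% in replicate 1, with 59.4% in replicate 2.

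The deposited tables carry their own measure of estimation error. In 28 genes the TPM intervals of the dominant pair were apart in both libraries, in 9 in replicate 1 only, in 20 in replicate 2 only and in 14 in neither. Those 14 include Pcbd2, 9530068E07Rik, Vps25, Naa80 and Ubqln1. The posterior standard deviation of the dominant transcript's reads had a median of 3.16% of the reads in replicate 1 and 3.58% in replicate 2, against 1.61% and 1.65% in the 4036 other genes. It passed 10% in a library in 15 switched genes (21.1%) and in 251 of the others (6.22%). The posterior standard deviation covers the division of reads within 1 library. The intervals can be wider than that. Ece1-203 in replicate 2 had 21.99 reads, a posterior standard deviation of 0.06 reads and an interval of 90.3 to 209.3 TPM. Neither measure covers sampling of animals.

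**Figure D3:**
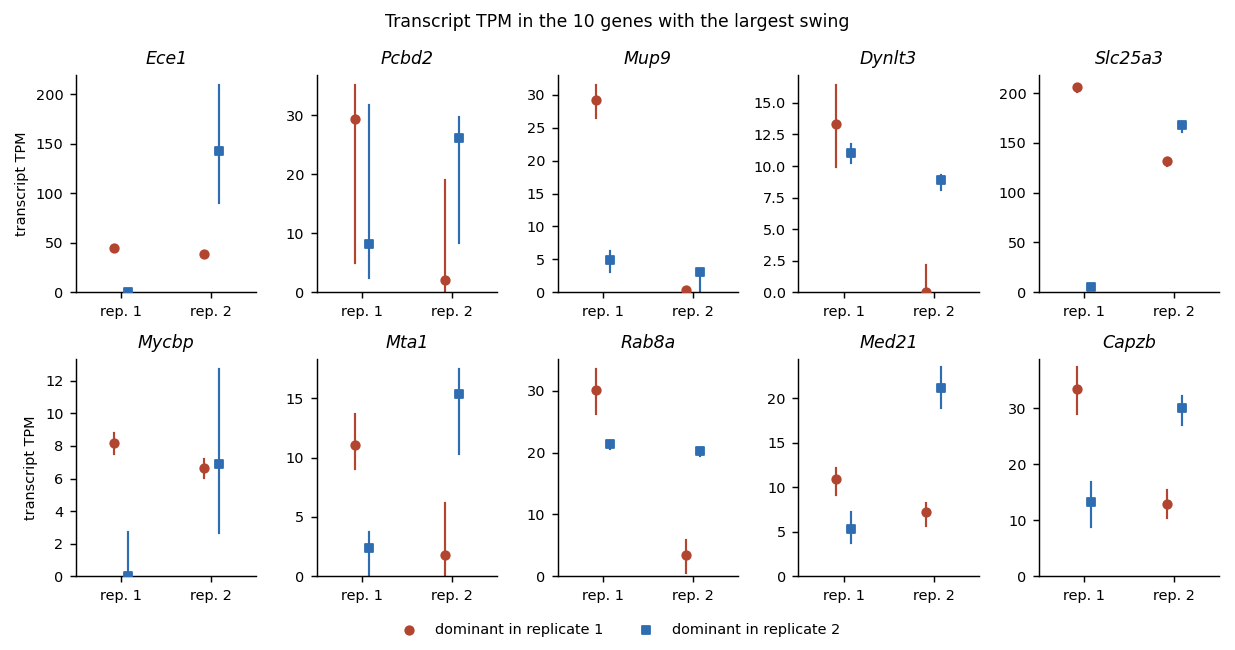
TPM of both dominant transcripts in replicates 1 and 2 for the 10 genes with the largest swing, with the interval of TPM deposited by the authors (its level is not stated). Circles mark the transcript dominant in replicate 1 and squares that dominant in replicate 2; in Pcbd2 the intervals overlap in both libraries, in Slc25a3 and Capzb in neither.

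The largest swing of all rested on very few reads. Ece1 encodes endothelin-converting enzyme 1, and Ece1-203 is a model of 172 bases. Its effective length, the number of positions from which a fragment could come, was 0.00 bases in replicate 1 and 3.14 bases in replicate 2. With 3.99 reads in replicate 1 and 21.99 reads in replicate 2 it received 0.00 and 142.7 TPM. Ece1-201 had 10161 and 8900 reads, 45.0 and 39.1 TPM, and so 97.4% and 21.3% of the gene. The gene as a whole had 46.2 TPM in replicate 1 and 183.5 in replicate 2, with 10197 and 8969 reads.

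Short models also took the lead in other genes on modest counts. Mycbp encodes a MYC-binding protein, and its model Mycbp-204 of 210 bases had 0.00 and 10.9 reads, and 0.00 and 6.90 TPM. It is the 1 gene of the set with fewer than 20 reads on a dominant transcript. Dynlt3, a dynein light chain, had the short model Dynlt3-204 (483 bases) at 13.4 TPM from 192 reads in replicate 1 and 0.00 TPM in replicate 2, while Dynlt3-201 had 11.1 and 8.89 TPM. Rab8a encodes a small GTPase of membrane traffic. Its model Rab8a-202 (542 bases, annotated as intron-retaining) had 30.2 TPM from 520 reads in replicate 1. In replicate 2 it had 3.51 TPM from 62.7 reads. The coding Rab8a-201 had 21.4 and 20.3 TPM. In each of these the long coding transcript differed less between the libraries than the short one.

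Some pairs are nearly the same sequence. For 54 genes whose models are unchanged between the annotation releases, the read-length windows of 76 bases found in one dominant transcript and not in the other were counted, and the smaller of the 2 numbers was taken. Its median was 75 windows, against 142 for the leading pair of transcripts in 3277 other genes. It was 0 in 4 genes (7.41%), namely Pcbd2, Mta1, Iars and 9530068E07Rik, and in 1.46% of the others. Mta1-202 lies whole within Mta1-204, which adds 45 bases at its start and 33 at its end, and both have the same coding sequence of 2094 bases although the annotation places an intron 5 bases apart. The junction sequences printed for Mta1 are the same run of bases, shifted by 5. Their shares were nonetheless 54.3% in replicate 1 and 6.44% in replicate 2 for Mta1-204, and 11.7% and 56.2% for Mta1-202. Iars, the isoleucyl-tRNA synthetase, has an intron placed 1 base apart, and Iars-201 lies whole within Iars-206, which adds 30 bases at its start. Iars-201 held 57.6% and 28.4%. Pcbd2, a dehydratase of the pterin cofactor cycle, has 2 models whose ends are 2 bases apart, and Pcbd2-201 held 78.3% in replicate 1 and 7.24% in replicate 2. Its reads were 511 and 36.6, with a posterior standard deviation of 139 and 111 reads.

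By annotation the pairs fell into 4 classes, counted over the 67 genes with both transcripts in GENCODE M21. Pairs whose M21 lengths differ from the deposited ones are included. Both transcripts were coding with different annotated coding exons in 29 genes (43.3%), against 36.5% of the leading pairs in 3901 other genes. These were Aldh2, Slc25a3, Cfhr2, Aph1a, Ece1, 9530068E07Rik, Naa80, Ubqln1, Pltp, Capzb, C77080, Pcbd2, Ythdf1, Slc35d1, Mta1, Med21, Sec23a, Rsu1, Nmrk1, 1810046K07Rik, Dhx32, Ptpn11, Ubr2, Dnttip1, Rnd1, Rtn4ip1, Btbd6, Iars and Stx2. Mta1 and Iars are in this class by coordinates only, since their coding sequences are identical. The class does not ask whether a model is a fragment or its reading frame complete. Ece1-203 has 87 coding bases against 2259 in Ece1-201. Rsu1-206 has 336 against 831 in Rsu1-201, and Dnttip1-202 has 333 against 984 in Dnttip1-201. Both were coding with the same coding exons in 7 genes (Rpl41, Arpc2, Etnppl, Plin5, Ubl3, Eif1a and Tmco4), and neither was coding in 4 (Gm26917, Taf10, Neat1 and Mug-ps1). Gpld1, Sdc2, Ppp1r15a and Rap2a each have a dominant transcript that the M21 annotation lacks, and were not classed.

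In the remaining 27 genes (40.3%, against 48.5%) one dominant transcript was coding and the other was not. The coding one led in replicate 1 in 19 of them and in replicate 2 in 8. In 10 of the 27 the rival is annotated as intron-retaining: Rps16, Psmb7, Ddrgk1, Hectd3, Slc35e1, Eif2b2, Immp2l, Mup9, Nsf and Rab8a. The model so annotated led in replicate 2 in 9 of these, and in replicate 1 only in Rab8a. By exon structure, an exon of one dominant transcript spanned a whole intron of the other in 3 of 54 genes (5.56%). In 3277 other genes it was 16.1%. The 3 are Gm26917, Neat1 and Arpc2, which are not among the 10. Rps16 and Psmb7 have changed models and were not compared in this way. Psmb7, a catalytic subunit of the proteasome, is one of the 9. Psmb7-201 had 75.4 TPM in replicate 1 and 58.1 in replicate 2, and Psmb7-202, the intron-retaining model, had 63.9 and 62.1 TPM. In Ddrgk1, an endoplasmic reticulum protein of the UFM1 pathway, Ddrgk1-206 held 43.8% and 58.9%.

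Intron-retaining and other non-coding models also led more often in replicate 2 in genes outside the set. Among genes outside the rule with another dominant transcript in each library, 50 had a coding and an intron-retaining model in the lead, and the intron-retaining one led in replicate 2 in 38 (76%). Over 2310 other genes with any share on such models, their summed share was higher in replicate 2 in 1831 (79.3%). Models marked for decay led in replicate 2 in 20 of 27 such pairs (74.1%), and their summed share was higher there in 57.2% of 957 genes. Processed transcripts led in replicate 2 in 32 of 49 pairs (65.3%), and their summed share was higher there in 59.4% of 1544 genes. In the set, 5 genes had a model marked for decay as the non-coding rival (Adh1, Vps25, Cyp3a25, Emc1 and Stradb), which led in replicate 1 only in Adh1. The 12 with a processed transcript were split evenly, with it leading in replicate 1 in Slc2a8, Ccl9, Wasl, Mfsd13a, Dynlt3 and Tns3 and in replicate 2 in Hsd17b12, Ubald2, Sgf29, Ubap1, Oma1 and Mycbp.

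Adh1 and Aldh2, the enzymes of ethanol oxidation, were the most abundant genes of the set. Adh1 had 2654 TPM in replicate 1 and 2737 in replicate 2. Its share on Adh1-202, the transcript marked for decay, was 50.9% in replicate 1 and 39.4% in replicate 2, and Adh1-201 held 48.6% and 59.3%. By reads Adh1-201 led in both libraries, with 57.1% and 67.4% of the gene's reads. Aldh2 had 2492 and 3240 TPM. Its transcript Aldh2-202 of 1803 bases had 1472 and 1428 TPM, while Aldh2-204, a model of 656 bases, had 819 and 1620 TPM. Aldh2-202 took 69.6% and 63.5% of the reads.

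Whether the lead changed hands depended on the measure of the share. TPM divides reads by effective length, so a short model needs few reads to hold a large share. When shares were taken of estimated reads, another transcript led in each library in 26 of the 71 genes (36.6%), and in the other 45 the same one led in both. In 44 of the 45 that constant leader was the longer of the dominant pair, and in Neat1 it was another transcript. Within the pair the rule fixes this outcome. The longer transcript has more reads than the shorter in the library where it leads by TPM. Among the 26, the longer transcript was at most 1.43 times as long as the shorter, with a median of 1.04 times. Among the 45 the ratio ran from 1.16 to 28.0, with a median of 3.50. This contrast also follows in part from dividing reads by length, so nothing more is read from it.

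**Figure D4:**
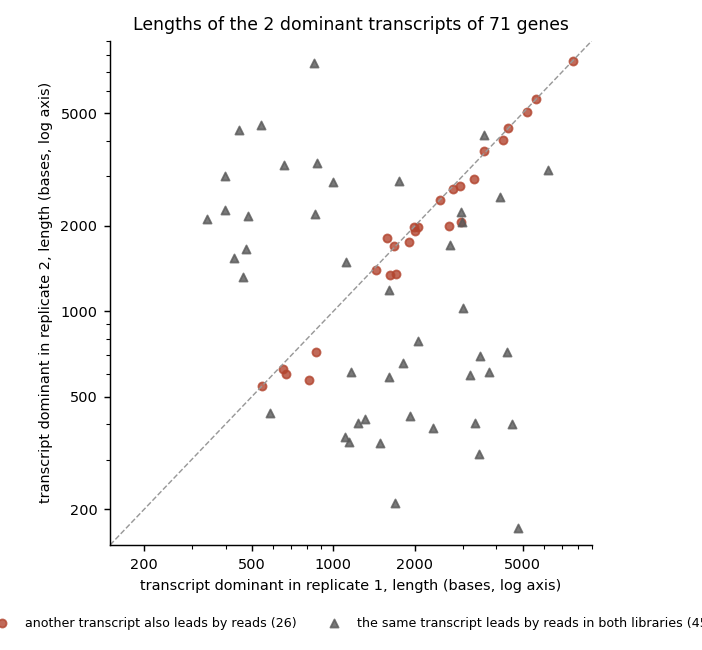
Annotated length in bases (log axes) of the transcript dominant in replicate 1 and of that dominant in replicate 2, for 71 genes; the dashed line marks equal length. Circles, the 26 genes in which another transcript also leads by reads, lie close to the line, and triangles, the 45 in which the same transcript leads by reads in both libraries, lie mostly away from it.

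In 14 of those 26 genes the intervals of the pair were also apart in both libraries. These are Slc25a3, Taf10, Cyp3a25, Pltp, Hsd17b12, Capzb, Plin5, Slc35d1, Mta1, Med21, Stradb, Nmrk1, Tmco4 and Stx2. Plin5, a protein that coats lipid droplets, has dominant transcripts of equal length (1986 bases) with the same coding exons and starts 298 bases apart. Plin5-202 had 32.3 TPM in replicate 1 and 12.1 in replicate 2, and Plin5-201 had 16.5 and 24.6 TPM. Med21, a subunit of the Mediator complex, had 10.97 and 7.24 TPM of Med21-201 and 5.31 and 21.2 TPM of Med21-203, whose 3′ ends lie 1069 bases apart. Taf10, shared by the TFIID and SAGA complexes, exchanged less, with 53.0% and 44.8% for Taf10-201 and 45.6% and 53.1% for Taf10-202.

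The transcript dominant in replicate 1 was the longer of the pair in 46 genes (64.8%), the shorter in 23 and of equal length in 2, Plin5 and Ubr2. Among the 310 genes outside the rule with another dominant transcript in each library it was the longer in 63.2%. The shorter dominant transcript was under 500 bases in 21 of the 71 genes (29.6%), against 15.6% of the leading pairs of other genes. It was the replicate 2 transcript in 13 of the 21. Annotated length exceeded effective length by a median of 188.3 bases in replicate 1 and 178.1 bases in replicate 2. The effective lengths of replicate 1 were also used for both libraries, an alternative added after the values were seen. With them 70 of the 71 genes still met the rule, all but Ece1. With those of replicate 2 it was 68, and with annotated lengths 43. The estimated reads were kept as deposited, so their division within each library was not redone.

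At the level of the whole gene the set differed little from its background. Estimated reads, scaled by TMM, were at least 1.5-fold apart in 7 of the 71 genes (9.86%), and in 7.11% of all 4107. It was higher in replicate 1 in 3 of them (4.23%, against 3.43% of all) and lower in 4 (5.63%, against 3.68%). Neat1, a long non-coding RNA of nuclear paraspeckles, had 13771 reads in replicate 1 and 51322 in replicate 2, a log2 ratio of -1.75. Mug-ps1, a murinoglobulin pseudogene, had 6009 and 12945 reads (log2 -0.96), and its dominant transcripts share no exonic base. Mug-ps1-203 had 60.7 TPM in both libraries and Mug-ps1-202 had 28.1 and 70.7 TPM. Pltp and Nmrk1 were also lower in replicate 1 (log2 -0.86 and -0.59). Mup9, Rnd1 and Dynlt3 had log2 ratios of 3.71, 1.34 and 0.68. All 3 reached the floor on mean TPM only through replicate 1, with 3.90, 6.39 and 8.89 TPM in replicate 2. At such values in replicate 2, only genes higher in replicate 1 can pass the floor, so their direction is not read further. The median log2 ratio of reads was 0.14 in the set and 0.056 in all 4107 genes.

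Mup9 belongs to the major urinary proteins, a family of near-identical genes that share reads. Its posterior standard deviation reached 24.0% of the gene's reads, so its values are uncertain. It had 1258 reads in replicate 1 and 106 in replicate 2, and Mup9-204 held 66.3% and 9.94%. In every other gene of the set the posterior standard deviation of the gene's reads was at most 2.68%.

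By deposited gene TPM, 14 of the 71 genes (19.7%) were at least 1.5-fold apart, against 10.8% of all 4107. They were 5 genes higher in replicate 1 (7.04%, against 2.36% of all) and 9 lower (12.7%, against 8.42%). Among the 5, Mup9, Rnd1, Dynlt3 and 1810046K07Rik (9.69 TPM in replicate 2) reached the floor on mean TPM only through replicate 1. Among the 9, Mycbp (8.60 TPM in replicate 1) reached it only through replicate 2. A gene below the floor in 1 library can pass on the mean only by a higher level in the other. The counts are therefore not read as a difference from all genes. The ratio by TPM was below the ratio by TMM-scaled reads in 59 genes (83.1%), and in 92.8% of all 4107, whose medians differ between the scales. The signs of the ratios were opposite in 23 genes (32.4%), and in 21.3% of all. Ece1 had a log2 ratio of 0.33 by reads and -1.99 by TPM. Rab8a had 0.34 and 1.12. The median by TPM was -0.12 in the set and -0.088 in all 4107 genes. Gene TPM sums over transcripts of different length, so it takes in the exchange that chose the genes and is no independent measure of them.

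**Figure D5:**
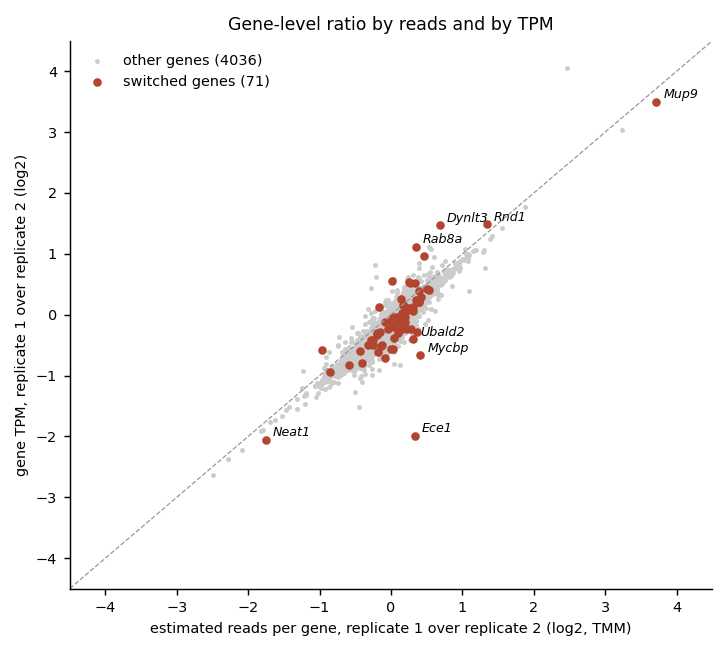
Log2 ratio of replicate 1 over replicate 2 by TMM-scaled reads per gene (horizontal) and by gene TPM (vertical), for the 71 genes (red) and the 4036 others (grey, 1 of them beyond the axes). Mup9 and Neat1 stand apart on both axes, and Ece1 only by TPM.

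The members were counted in lists of genes for the liver's main programmes. The lists do not hold Adh1, Aldh2, Cfhr2, Gpld1, Pltp or Mup9, which are members. No member came from the lists of plasma proteins (0 of 30 genes with several transcripts at this level), coagulation (0 of 9), complement (0 of 15), conjugation and antioxidant enzymes (0 of 45), amino acid and urea cycle enzymes (0 of 44), glucose and glycogen metabolism (0 of 28), fatty acid oxidation (0 of 34), the respiratory chain (0 of 53), splicing and mRNA processing factors (0 of 60) or liver transcription factors (0 of 46). Cyp3a25 was 1 of 22 cytochromes P450, Plin5 was 1 of 44 lipid genes, Ptpn11 was 1 of 22 signalling genes and Psmb7 was 1 of 48 folding and proteasome genes. Rpl41 and Rps16 were 2 of 60 cytosolic ribosomal protein genes. Over all 4107 genes the share was 1.73%, at which lists of 9 to 60 genes would hold about 1 member or none, and no list is called apart from the rest.

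The listed members showed moderate exchanges. Ptpn11-202 held 50.8% in replicate 1 and 35.1% in replicate 2, and Ptpn11-201, with the 12 added bases, held 47.9% and 64.3%. Their TPM intervals overlapped in replicate 1. By another deposited share, taken from the posterior mean of TPM, Ptpn11-201 led in both libraries (49.2% against 48.3% in replicate 1). By that share another transcript led in each library in 68 of the 71 genes, all but Ptpn11, 9530068E07Rik and C77080. Rpl41-201 held 56.0% and 43.5%, and Rps16-201 held 51.2% and 42.8%. The posterior standard deviation of the gene's reads was at most 0.187% for both ribosomal protein genes.

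The remaining abundant members were Gpld1, Cfhr2 and Aph1a. Gpld1, a phospholipase secreted by the liver, had 190 and 206 TPM, with 51.7% and 48.3% on Gpld1-201. Cfhr2, a complement factor H-related gene, had 187 and 205 TPM, with 60.2% and 43.3% on Cfhr2-201. Aph1a, a subunit of gamma-secretase, had 181 and 161 TPM, with 54.9% and 47.3% on Aph1a-202. By reads the same transcript led in both libraries in all 3 genes.

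The libraries held 60770411 and 61688916 estimated reads. Hepatocyte markers were high in both, with 7 genes between 224 and 34763 TPM. Markers of other cells were lower in replicate 1 for Kupffer cells (7 genes, 210 and 347 TPM in sum), red cells (5 genes, 1290 and 2110 TPM), sinusoidal endothelium (6 genes, 90.9 and 129 TPM) and lymphocytes (4 genes, 3.39 and 9.10 TPM), and none was at 0 in both. The red cell sum is mostly globin, and Alas2 of that list went the other way (40.3 and 35.1 TPM). Stellate cell markers summed to 94.8 and 108 TPM and bile duct markers to 21.2 and 18.7 TPM. Dcn made up most of the stellate sum (63.9 and 76.3 TPM). Lrat of that list went the other way (6.68 and 2.97 TPM), as Des and Col1a1 did slightly. The part of any of these cells in the exchanges was not tested. In bulk RNA, fewer cells of a type and less RNA per cell cannot be told apart.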

How the data were processed

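Poly-A RNA-seq of 1 group (liver, 2 libraries) was analysed. Per the deposited notes, reads were assigned to mm10 with GENCODE M4 (tool not given in the sources used here). Estimated counts, as deposited, are read pairs divided among transcripts and genes. The deposited TPM values are corrected for effective length. The percent per transcript, also deposited, is its share of the gene's TPM. The authors also deposited score columns used here. These are the posterior standard deviation of the count and a share from the posterior mean of TPM. Bounds of a TPM interval, whose level is not stated, were deposited and used too. Junction and contig files, on mm9, were not used here.

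The members, lists and rule for named genes were chosen with earlier results of these data known. The text names the 15 members with the highest mean TPM, the 10 with the largest swing, 5 on each side of the minimum share, and members of the lists; further members were named after their values were seen. Models, types and sequences came from GENCODE M21 on GRCm38, the mm10 assembly. Types and coding classes were taken whether or not lengths matched the deposited ones. Exon structures and windows were compared only where lengths matched. For gene-level ratios the counts were rounded and TMM-scaled (edgeR 4.0.16, R 4.3.3) over genes with at least 20 reads, with a prior count of 0.5 reads; gene TPM ratios used a pseudocount of 0.01. DESeq2 1.42.0 gave alternative size factors. The code for the rule and ratios was checked on simulated data with planted switches and folds. That check does not measure how reliable the switches are.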

Additional observations from a re-analysis of the deposited data

How the results depend on the processing

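No paired analysis was possible because the 2 libraries form 1 group, and leaving a library out ends the rule, which needs both. The count of 71 genes was 304 and 123 at floors of 1 and 5 on mean TPM and 26 at 50, 178 at a minimum share of 40%, 9 at 60%, 2 at 70% and 381 with no minimum. At 60% the replicate 1 transcript was the longer in 5 of 9 genes, and 6 of the 9 switched by reads. The count stayed between 48 and 71 under the 10 other settings, but the genes differed: by share of estimated reads 56 genes met the rule, 23 of them among the 71, and with annotated lengths (added after seeing the data) 60 did, 43 among the 71. The median gene-level log2 ratio of 0.14 was -0.012 with spike-in totals and -0.12 by deposited TPM; the median of all 4107 genes was -0.096 and -0.088 there. By deposited TPM 14 members were 1.5-fold apart, against 7 by reads. The deposited intervals each come from 1 library and do not cover sampling of animals.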
